A study of Mus musculus with 10 samples.

Results

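This section describes 8 genes that build the keratin and actin skeleton of the intestinal epithelium, out of 22180 genes measured in mouse intestinal cells. They are the simple epithelial keratins Krt8, Krt18, Krt19 and Krt20 and the brush border proteins Vil1 (villin), Espn (espin), Myo1a (brush border myosin I) and Ezr (ezrin). The genes were chosen by name, and where a gene had several probe sets, the one with the highest mean log2 intensity was read. All 8 were found. Krt18 had 2 probe sets and the other genes had 1.

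Amplified RNA of sorted cells was hybridised to 10 arrays, 4 of Flattop-expressing crypt cells and 6 of intestinal stem cells with high Lgr5 and GFP (Lgr5-high). The Flattop cells came from mice labelled FltpT2AiCre crossed with Gt(ROSA)26mTmG, on a mixed background of C57BL/6J, CD1 and 129/SvJ. In such a cross the Cre is made where Flattop (Cfap126) is made, and it switches the colour of a membrane reporter for good, so that descendants of a marked cell stay marked. Mice labelled Lgr5-EGFP-IRES-creERT2, on C57BL/6J, gave the Lgr5-high cells, and in them GFP follows the stem cell receptor gene Lgr5. All mice were 3 to 6 months old, no treatment beyond cell preparation and sorting is labelled, and the sources used here do not give the sort gates. The effects of cell group, genotype and strain cannot be told apart, since they coincide. Whether each replicate was its own animal is not labelled, so the p-values cover only how these arrays vary, which may be partly technical. Flattop values below are listed for replicates 1 to 4 and Lgr5-high values for replicates 1 to 6, as log2 intensities.

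Keratins are intermediate filament proteins that form filaments as pairs of a type II and a type I chain. In simple epithelia the type II chain is mostly keratin 8, and its type I partners are keratins 18, 19 and, in differentiated gut epithelium, 20. On the apical face of absorptive enterocytes, bundles of actin filaments cross-linked by villin and espin fill each microvillus, myosin 1a ties the bundle to the membrane along its sides, and ezrin links actin to membrane proteins. The array of microvilli is the brush border, which carries digestive enzymes and transporters.

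Only 1 of the 8 genes, Krt20, passed the test between the groups, as higher in Flattop cells, and 0 passed as lower. Groups were tested with limma (two-sided), p-values were adjusted by Benjamini and Hochberg's method over the 22180 genes, and 0.05 was the threshold. Of all genes 0.902% passed as higher and 0.0135% as lower. Differences are Flattop minus Lgr5-high on the log2 scale and were positive for 7 of the 8 genes, against 38.4% of all genes. All 8 genes lay above the median gene mean, and the share among genes of like level was not computed. The positive Espn difference was 0.01, and its sign turned with the processing. Krt20, Vil1 and Myo1a (3 of 8) were higher with an unadjusted p under 0.05, as were 5.98% of all genes (9.78% in either direction). The groups did not overlap in Krt20 and Vil1, against 2.01% of genes that lay wholly higher in Flattop arrays and 2.98% that lay apart in either direction. In bulk RNA of sorted cells, a different number of cells of a type and a different amount of RNA per cell cannot be told apart.

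**Figure D1:**
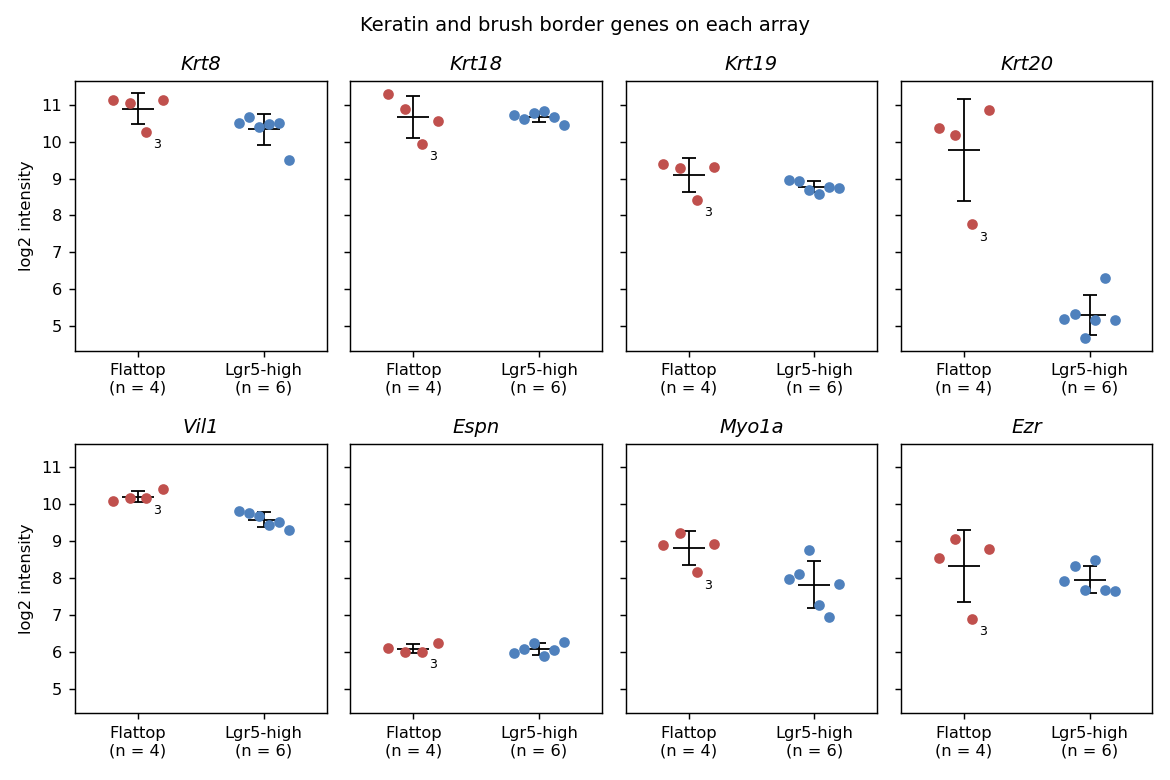
Log2 intensity of each gene on each array, 4 Flattop arrays (left in each panel, red) and 6 Lgr5-high arrays (right, blue), with the group mean and SD as bars and Flattop replicate 3 marked by its number. Krt20 and Vil1 have no Lgr5-high array within the Flattop range, and Flattop replicate 3 is the lowest Flattop array for every gene except Vil1.

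Keratin 20, the type I keratin of differentiated gut epithelium, was the member that separated the groups by a wide margin. Krt20 (Entrez gene 66809) read 10.36, 10.18, 7.76 and 10.84 in the Flattop arrays, against 5.20, 5.33, 4.67, 5.18, 6.30 and 5.17 in the Lgr5-high arrays. The lowest Flattop array, replicate 3, lay 1.45 above the highest Lgr5-high array, replicate 5. The other 3 Flattop arrays lay close together above it. Its mean was 9.78 ± 1.38 over the Flattop arrays (SD, n = 4) and 5.31 ± 0.54 over the Lgr5-high arrays (SD, n = 6). Krt20 rose by 4.48 (SE 0.54, limma adjusted p = 0.00247), a fold of 22.3 with a 95% interval from 9.79 to 50.6. This difference ranked 21 among the 22180 genes. The Lgr5-high mean lay little above the median of all values (4.70), and without detection calls the size of the fold is uncertain.

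The 250 bases before the RefSeq start are shown for Krt20 and for Krt18, a keratin of the same type (GRCm38.p6, written 5′ to 3′ on the gene's strand). The Krt20 stretch is chr11:99438154-99438403 on the minus strand and the Krt18 stretch chr15:102027966-102028215 on the plus strand. Capitals mark matches, on either strand, to 5 motifs.
Krt20: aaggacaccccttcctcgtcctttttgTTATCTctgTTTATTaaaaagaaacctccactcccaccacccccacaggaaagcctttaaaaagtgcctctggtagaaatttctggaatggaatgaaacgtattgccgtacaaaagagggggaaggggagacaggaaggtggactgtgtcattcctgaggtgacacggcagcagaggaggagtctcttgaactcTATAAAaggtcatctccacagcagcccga
Krt18: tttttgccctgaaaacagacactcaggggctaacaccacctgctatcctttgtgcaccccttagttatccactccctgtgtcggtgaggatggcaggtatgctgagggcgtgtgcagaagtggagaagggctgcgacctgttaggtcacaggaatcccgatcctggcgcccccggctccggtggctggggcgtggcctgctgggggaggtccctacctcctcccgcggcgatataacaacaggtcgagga

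In Krt20 the letters TATAAA, those of a TATA box, lie 29 to 24 bases before the start, TTTATT (CDX2) lies 214 to 209 bases before it, and AGATAA, recognised by factors of the GATA family, lies on the other strand 223 to 218 bases before it. None of the matches overlap. TATAAA occurs on either strand in 12.4% of 32851 RefSeq promoter stretches of the same length, TTTATT in 18.1% and AGATAA in 9.99%. The other letters searched were CAAAGTCCA (HNF4A, 0.384% of stretches) and GGGCGG (SP1, 32.7%). Krt18 held an exact match to 0 of the 5, and near matches, such as its tataac close to the start, were not counted. These are matches of letters and say nothing of what binds there, and a link to the differences between the groups was not tested. Such stretches were found for 7 of the 8 genes, Krt19 being the exception, and Vil1 (chromosome 1), Espn (chromosome 4) and Ezr (chromosome 17) each held GGGCGG (Espn in 2 of its 3 stretches), Krt8 (chromosome 15) held AGATAA, and Myo1a (chromosome 10) held 0 of the 5.

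The keratins that pair throughout the simple epithelium did not pass. Krt8 (Entrez gene 16691), the type II chain, read 11.13, 11.04, 10.27 and 11.13 in the Flattop arrays, against 10.49, 10.66, 10.39, 10.48, 10.50 and 9.50 in the Lgr5-high arrays. Flattop replicate 3 lay within the Lgr5-high range and the other 3 Flattop arrays lay above it. Krt8 averaged 10.89 ± 0.42 in Flattop and 10.34 ± 0.42 in Lgr5-high arrays (SD, n = 4 and 6), a difference of 0.55 (SE 0.25, limma adjusted p = 0.510). Lgr5-high replicate 6 was the lowest array of all for this gene. RefSeq also lists a Krt8 pseudogene, so probes of Krt8 may be shared and its level is uncertain.

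Krt18 (Entrez gene 16668), the usual type I partner of keratin 8, read 11.29, 10.88, 9.94 and 10.55 in the Flattop arrays, against 10.72, 10.62, 10.78, 10.82, 10.68 and 10.44 in the Lgr5-high arrays. The Flattop arrays spread to both sides of the Lgr5-high arrays. The means were 10.66 ± 0.57 and 10.68 ± 0.14 (SD, n = 4 Flattop and 6 Lgr5-high), the difference was -0.01 (SE 0.22, limma adjusted p = 0.990), and its 95% interval ran from -0.51 to 0.48. The sign of so small a difference turned with the processing, and a second Krt18 probe set gave 0.16 (SE 0.41, limma adjusted p = 0.912).

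Krt19 (Entrez gene 16669), a type I keratin without the usual tail domain, read 9.40, 9.29, 8.42 and 9.31 in the Flattop arrays, against 8.97, 8.94, 8.69, 8.58, 8.76 and 8.75 in the Lgr5-high arrays. Flattop replicate 3 lay under all 6 Lgr5-high arrays and the other 3 Flattop arrays above all of them. The means were 9.10 ± 0.46 in Flattop and 8.78 ± 0.15 in Lgr5-high arrays (SD, n = 4 and 6), with a difference of 0.32 (SE 0.19, limma adjusted p = 0.627) and a 95% interval from -0.10 to 0.75.

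Whether Krt20 changed more than the other keratins was tested on the log2 difference of both genes within each array, which removes any factor that scales both genes alike. Of 6 such pairs of members, 3 passed an exact two-sided permutation test over arrays after Benjamini-Hochberg adjustment over the 6, and all 3 set Krt20 against another keratin. The change of Krt20 exceeded that of Krt8 by 3.92, that of Krt18 by 4.49 and that of Krt19 by 4.15 on the log2 scale. For each of these pairs p was 0.00952 (exact permutation, adjusted 0.0190), the smallest that 4 against 6 arrays allow. All 3 pairs share the Krt20 values, which had already separated the groups, so they add no independent support for the Krt20 difference. Within an array, Krt20 minus Krt8 lay between -2.51 and -0.29 in Flattop and between -5.72 and -4.20 in Lgr5-high arrays. The 3 pairs of brush border genes against Ezr did not pass. The change of Vil1 exceeded that of Ezr by 0.26 (exact permutation p = 0.629, adjusted 0.629), that of Myo1a exceeded it by 0.63 (exact permutation p = 0.181, adjusted 0.271), and that of Espn was set at -0.35 against it (exact permutation p = 0.448, adjusted 0.537).

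**Figure D2:**
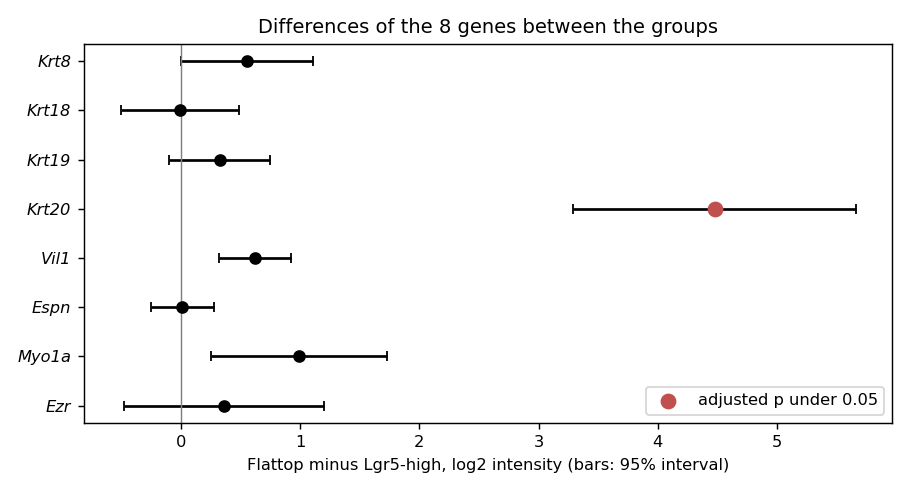
Difference of each gene, Flattop minus Lgr5-high in log2 intensity, with its 95% interval from limma (4 and 6 arrays) and a red point where the adjusted p is under 0.05. The interval of Krt20 starts at 3.29, above the upper end of every other gene, the highest of which is 1.73 for Myo1a.

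Among the brush border proteins, villin gave the smallest p, and 0 of the 4 passed. Vil1 (Entrez gene 22349), which bundles, caps and severs actin filaments, read 10.08, 10.18, 10.17 and 10.40 in the Flattop arrays, against 9.83, 9.77, 9.69, 9.43, 9.52 and 9.29 in the Lgr5-high arrays. All 4 Flattop arrays lay above all 6 Lgr5-high arrays, by a gap of 0.25. The means were 10.21 ± 0.14 in Flattop and 9.59 ± 0.21 in Lgr5-high arrays (SD, n = 4 and 6), a difference of 0.62 (SE 0.14) or a fold of 1.54 (95% interval 1.25 to 1.90). The limma adjusted p was 0.0782, so Vil1 would pass at a threshold of 0.1, as 1.32% of genes did as higher. That depended on the processing, since its limma adjusted p ran from 0.0571 to 0.599 over the 21 alternatives given at the end.

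Myo1a (Entrez gene 432516), the motor that links the actin core to the microvillus membrane, read 8.91, 9.23, 8.16 and 8.94 in the Flattop arrays, against 7.98, 8.10, 8.76, 7.29, 6.95 and 7.84 in the Lgr5-high arrays. The groups overlapped through Flattop replicate 3 and Lgr5-high replicate 3. The means were 8.81 ± 0.46 in Flattop and 7.82 ± 0.64 in Lgr5-high arrays (SD, n = 4 and 6), and the difference of 0.99 (SE 0.33), a fold of 1.98 with a 95% interval from 1.19 to 3.31, did not pass (limma adjusted p = 0.325).

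Ezr (Entrez gene 22350), the membrane linker, varied more among Flattop than among Lgr5-high arrays. It read 8.54, 9.05, 6.90 and 8.80 in the Flattop arrays, against 7.93, 8.34, 7.69, 8.48, 7.69 and 7.65 in the Lgr5-high arrays. Flattop replicate 3 was the lowest array of all and the other 3 were the highest. The means were 8.32 ± 0.97 and 7.96 ± 0.36 (SD, n = 4 Flattop and 6 Lgr5-high), with a difference of 0.36 (SE 0.38, limma adjusted p = 0.772) and an interval from -0.48 to 1.20.

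Espn (Entrez gene 56226), the other actin bundler, varied little in either group. It read 6.12, 6.01, 6.00 and 6.24 in the Flattop arrays, against 5.97, 6.08, 6.26, 5.88, 6.06 and 6.26 in the Lgr5-high arrays. The groups overlapped almost wholly. The difference was 0.01 (SE 0.12, limma adjusted p = 0.985), with a 95% interval from -0.25 to 0.27, and its sign turned with the processing.

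Flattop replicate 3 was low in most of these genes. It was the lowest Flattop array in 7 of the 8, Vil1 being the exception, whereas it was the lowest in 24.4% of all genes. For Espn the margin was small (6.002 against 6.007 in replicate 2). Of the lists described below, replicate 3 was also lowest of the Flattop arrays in microvillus core (6.79) and adhesion complex (8.08). The same held for terminal web (7.86), desmosome (6.83) and apical trafficking genes (6.76). Among marker lists it was lowest for crypt stem cells (7.81), Paneth cells (11.94), enteroendocrine cells (8.23) and endothelial and mast cells (5.21). For tuft cells (6.28) and the brush border enzyme and absorption lists it was lowest too. Replicate 3 was not the lowest in other keratins, other intermediate filaments, goblet cell markers, fibroblast and smooth muscle markers or dissociation response genes. Of the Flattop arrays it had the highest median (4.77) and the lowest upper quartile (6.10). The same array had the highest mean of 10 lymphocyte marker genes. Those list means were 8.88, 9.46, 11.12 and 10.69 in Flattop replicates 1 to 4 and lay between 4.46 and 4.92 in the Lgr5-high arrays. It also had the lowest Lgr5 value, with 9.19, 9.65, 6.44 and 8.21 in the Flattop arrays and between 8.99 and 9.90 in the Lgr5-high arrays. Without Flattop replicate 3 the difference was 5.15 for Krt20 (limma adjusted p = 3.97e-05), 0.83 for Ezr (0.182), 0.55 for Krt19 (0.110), 0.76 for Krt8 (0.258) and 0.23 for Krt18 (0.617). Krt20 alone of the 8 passed without it.

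The titles of the samples carry numbers from 1 to 8 and from 38 to 46, and the labels do not say what these mark. Each range holds 2 Flattop and 3 Lgr5-high arrays. Within titles 1 to 8, Krt20 averaged 10.27 in Flattop and 5.07 in Lgr5-high arrays, a difference of 5.20 (limma adjusted p = 0.00368). Within titles 38 to 46 it averaged 9.30 and 5.55 in the same groups, and the difference of 3.75 did not pass (limma adjusted p = 0.292). The interaction of group and range was tested directly and passed for 0 of the 8 genes, against 0.00902% of all genes. For Krt20 it was -1.46 with a 95% interval from -3.90 to 0.99 (limma adjusted p = 0.756). Krt18, with differences of 0.38 within titles 1 to 8 and -0.40 within titles 38 to 46, was the 1 gene with an unadjusted p under 0.05 for the interaction (limma adjusted p = 0.662).

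Genes of enterocyte digestion and absorption rose as well. Of 10 brush border enzyme genes, 5 rose and 0 fell (median difference 2.09), and of 10 absorption genes 4 rose and 0 fell (median 1.81), where the median over all genes was -0.06. The increase was 4.69 for the alkaline phosphatase gene Alpi (SE 0.38) and 4.72 for Sis, which encodes the disaccharidase sucrase-isomaltase (SE 0.43). The aminopeptidase genes Enpep and Anpep rose by 3.82 (SE 0.50) and 2.29 (SE 0.33). Within titles 38 to 46 none of these 4 passed (limma adjusted p = 0.0795 for Alpi, 0.0772 for Sis, 0.303 for Enpep and 0.139 for Anpep), and Anpep also missed the threshold within titles 1 to 8 (0.0626). The enzyme list mean was 8.55, 8.90, 8.20 and 9.36 in the Flattop arrays, and it lay between 6.19 and 7.03 in the Lgr5-high arrays. Krt20, the enzyme list and the absorption list were each lowest in replicate 3 and highest in replicate 4 of the Flattop arrays. Among Lgr5-high arrays, Krt20 and the list means of the enzymes (7.03), goblet cell markers (10.45) and Paneth cell markers (10.05) were highest in replicate 5, and the absorption list in replicate 1 (7.42, against 7.26 in replicate 5).

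Markers of other cell types moved with the group too. All 10 lymphocyte markers rose (median 5.34), as did 5 of 8 goblet cell markers (1.27), 5 of 8 Paneth cell markers (3.37) and 5 of 8 enteroendocrine markers (1.34). Of 8 markers of endothelial and mast cells 3 rose, the mast cell proteases Mcpt1 (5.08) and Mcpt2 (3.22) and the receptor Kit. The mast cell markers Cpa3 (0.34) and Fcer1a (0.30) and the endothelial genes Pecam1 (0.13), Cdh5 (-0.31) and Kdr (-0.37) did not pass. The means of this list lay between 5.21 and 5.74 in Flattop and between 4.10 and 4.49 in Lgr5-high arrays. Of 8 tuft cell markers, a cell type that also makes villin and keratin 18, 0 passed (median 0.25), and of 8 fibroblast and smooth muscle markers 0 passed (median -0.09). None of the 8 crypt stem cell markers passed (median -0.61). No value on this scale is 0, and 7 of the 10 lymphocyte markers had Lgr5-high means under the median of Lgr5-high values. The list means of 12 dissociation response genes lay between 7.80 and 8.58 in Flattop and between 6.82 and 8.69 in Lgr5-high arrays, and 0 of the 12 passed. The part of these cell types in the Krt20 difference was not tested.

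**Figure D3:**
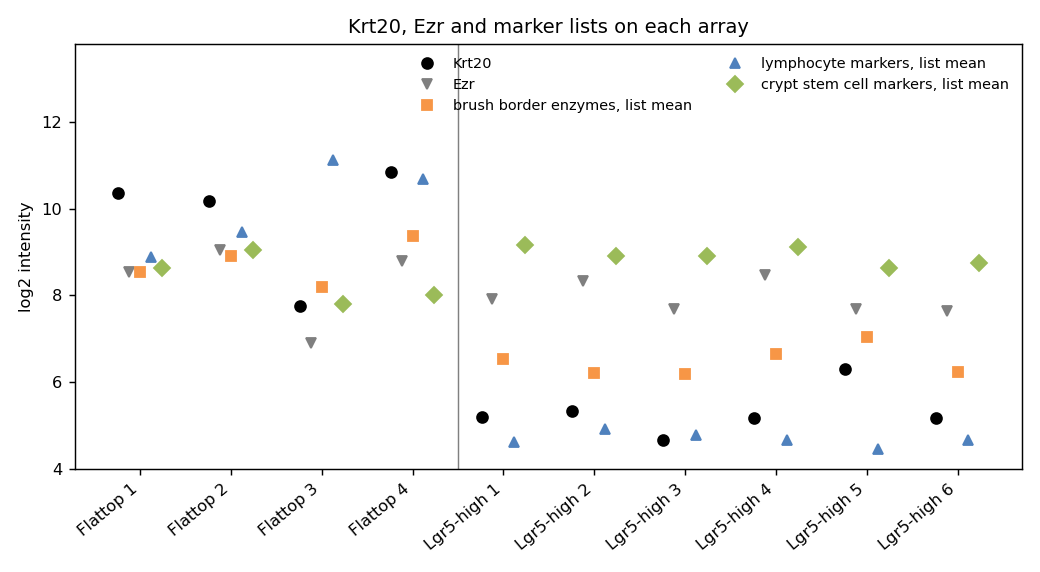
Log2 intensity of Krt20 and Ezr and the mean log2 intensity of 3 marker lists on each array, Flattop replicates left of the vertical line and Lgr5-high replicates right of it, with points shifted sideways to keep them apart. In Flattop replicate 3 Krt20 (7.76) and Ezr (6.90) are at their lowest Flattop values and the lymphocyte list mean (11.12) is at its highest.

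Around these 8 genes, 89 measured genes of 7 lists of cytoskeletal and membrane-linking genes were read from the same fit, and 1 rose and 0 fell, against 0.915% of all genes called in either direction. That gene was Cdhr5, a protocadherin of the complex that links neighbouring microvilli at their tips. Cdhr5 read 10.85, 10.54, 10.76 and 11.19 in the Flattop arrays, against 9.64, 9.69, 9.68, 9.17, 9.52 and 8.77 in the Lgr5-high arrays. The groups did not overlap. It averaged 10.83 ± 0.27 in Flattop and 9.41 ± 0.37 in Lgr5-high arrays (SD, n = 4 and 6) and rose by 1.42 (SE 0.21, limma adjusted p = 0.00858). It did not pass within titles 1 to 8 (adjusted p = 0.183) or within titles 38 to 46 (adjusted p = 0.119).

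The 6 genes of this adhesion complex all had positive differences, with a median of 0.39, and 1 passed. Its partner protocadherin Cdhr2 was at 1.05 (SE 0.37, limma adjusted p = 0.340), the light chain Calml4 at 0.44 and the motor Myo7b at 0.34. Of 17 genes of the microvillus core and membrane link, 0 passed in limma (median 0.08). An unadjusted p under 0.05 was reached by 6 of them, against 9.78% of all genes. The scaffold Slc9a3r1, which binds ezrin, was at 1.27 (SE 0.27, limma adjusted p = 0.0683), and it passed with the title range as a block (adjusted p = 0.0183). The ezrin relatives moesin and radixin were at 1.92 for Msn (SE 0.44, limma adjusted p = 0.0923) and 0.58 for Rdx (adjusted p = 0.331), and the ezrin kinase Stk10 at 0.98 (adjusted p = 0.364). Msn read 8.69 in Flattop replicate 4, between 5.92 and 6.44 in the other Flattop arrays and between 4.69 and 5.20 in the Lgr5-high arrays. Without Flattop replicate 4 its difference was 1.31 and passed (adjusted p = 0.00569). Msn has more than 1 probe set, and with their mean the difference was 0.89 and did not pass (adjusted p = 0.134). Moesin is an ERM protein made in leukocytes, whose lymphocyte markers were higher in Flattop arrays, and the part of leukocytes in its difference was not tested.

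The remaining lists held 0 genes past the threshold in limma. Of all genes 9.78% had an unadjusted p under 0.05 in either direction. Of 15 terminal web and cortical actin genes 3 had an unadjusted p under 0.05 (median 0.16), with Actb, cytoplasmic beta-actin, at 0.37 (adjusted p = 0.350) and Myh9, a non-muscle myosin, at 0.82 (0.371). Of 11 desmosome and keratin anchorage genes 1 had an unadjusted p under 0.05 (median -0.00), the cytolinker Plec at 0.42 (adjusted p = 0.429), and the desmosomal cadherin Dsg2 was at -0.23 (0.763). Of 8 apical trafficking genes 0 did (median 0.32), with the small GTPase Rab8a at 0.40 (adjusted p = 0.692).

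Among the keratin genes read, a chosen list and not every keratin of the genome, only Krt20 passed. Of 21 further keratin genes, 0 passed and 0 had an unadjusted p under 0.05 in limma, with a median difference of -0.17, and 15 of them had Lgr5-high means under the median of Lgr5-high values. Krt23, a type I keratin of gut epithelium, was at 1.12 (SE 0.63, limma adjusted p = 0.611) and Krt6a, a type II keratin of stratified epithelium, at -0.53 (adjusted p = 0.534). An unadjusted p under 0.05 was reached by 9.78% of all genes. Of 11 other intermediate filament genes, 0 passed and 3 had an unadjusted p under 0.05 (median -0.08). Among them Vim, the vimentin of mesenchymal cells and leukocytes, was at 0.96 (limma adjusted p = 0.238) and the nuclear lamin Lmnb1 at -0.73 (0.377).

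**Figure D4:**
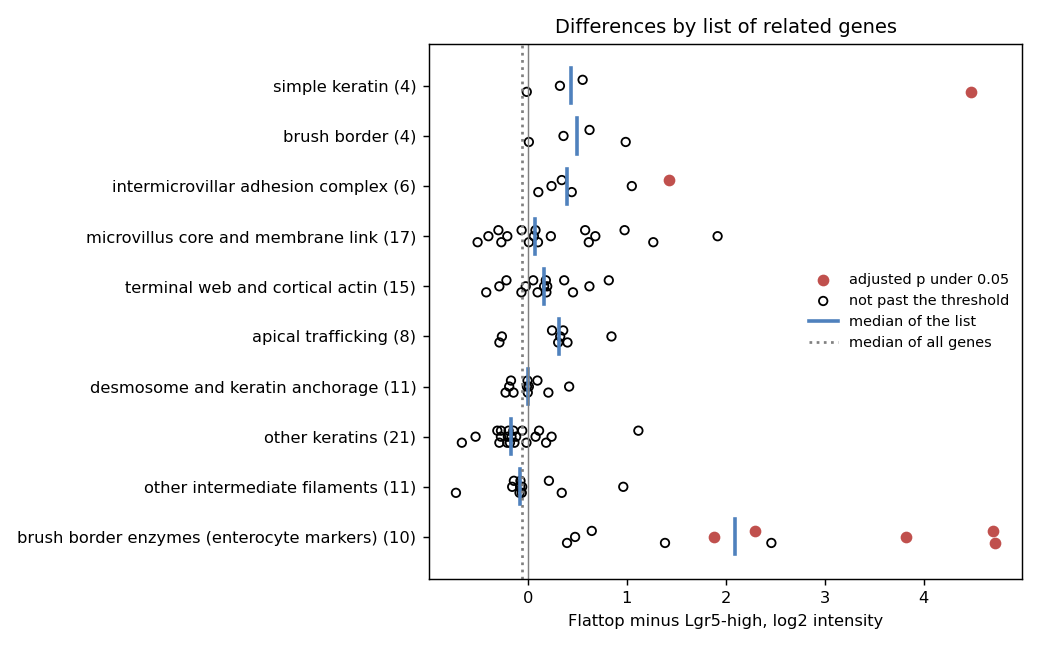
Difference of each gene, Flattop minus Lgr5-high in log2 intensity, by list with the number of genes measured, filled red where the adjusted p is under 0.05, with the list median as a vertical bar and the median of all genes as a dotted line. Krt20 is at 4.48, the other 7 genes lie between -0.01 and 0.99, and the 10 brush border enzymes spread between 0.40 and 4.72.

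The genes whose profile over the 10 arrays lay closest to that of each member were named by the mean absolute difference of the values, each gene centred on its own mean, among 10153 named genes of above-median mean, leaving out predicted, small RNA, olfactory and vomeronasal genes. For Krt20 these were Enpep, at 0.41, and the lectin-like gene Clec2h, at 0.44, where Krt20 itself deviated from its mean by 2.15 on average. Clec2h rose by 4.99. Their Lgr5-high means of 4.55 and 4.93 lay under the median gene mean of 4.98, so both were eligible only through their Flattop values. This likeness largely restates the group difference of Krt20 and adds no support for it. For Vil1 the nearest genes were Mylk (0.15) and Rnf213 (0.15), and for Myo1a Khk (0.18) and Ano6 (0.23). For Ezr they were Dlst (0.23) and Prxl2a (0.24), and for Espn Chrm1 (0.06) and Pmel (0.08). For Krt8 they were Enc1 (0.11) and Copa (0.14), for Krt18 Mrps26 (0.12) and Tspan8 (0.12), and for Krt19 Slc11a2 (0.11) and Cox7a2 (0.13). A gene that varies little lies close to many others, so these distances compare within a member and not between members. No other member was among the 2 nearest genes of any member.

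The arrays' labels were checked on the genes that define the groups. Lgr5 averaged 8.37 ± 1.42 in Flattop and 9.47 ± 0.33 in Lgr5-high arrays (SD, n = 4 and 6; limma adjusted p = 0.533), and Cfap126 averaged 5.42 ± 0.74 and 4.996 ± 0.349 in the same groups (limma adjusted p = 0.678). Neither gene separated the groups. Array medians lay between 4.56 and 4.77, no arrays were identical, and pairs of arrays correlated over the probe sets at 0.869 to 0.941 (both Flattop), 0.854 to 0.915 (both Lgr5-high) or 0.825 to 0.931 (1 of each; Pearson's r).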

How the data were processed

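The authors deposited log2 intensities for each probe set, and the submitters' processing notes name RMA normalisation and oligo 1.38.0. No later filter is named. Scanner files and detection calls were not used, and precision is limited by the number of arrays. Of 41345 probe sets, 23521 had 1 gene symbol in the platform annotation, 1814 several and 16010 none listed, and 23328 matched RefSeq GRCm38.p6 by Entrez number, with 0 symbols changed. For a gene with several probe sets the one of highest mean was kept, giving 22180 genes.

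Groups were compared with limma 3.58.1 in R 4.3.3, without a filter on low values, tested on simulated data. Within-array pairs used scipy 1.17.1 and plots matplotlib 3.10.9. The 8 genes and the lists were chosen with earlier results of these data known. Named were the 8 genes, genes from among the 4 of smallest p per list, the 2 nearest genes per member, and Lgr5 and Cfap126. The endothelial genes Pecam1 and Cdh5 and the mast cell genes Cpa3 and Fcer1a were named outside this rule. Alternatives are given at the end. The main fit treated the arrays as unpaired. Correlations of deviations were 0.30, -0.21, -0.01 and 0.03 for replicate numbers 1 to 4. These few values cannot settle whether replicate numbers pair the arrays.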

Additional observations from a re-analysis of the deposited data

Results flagged for a closer look

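Sets of values were examined for the 8 genes, many but not all of the other named genes and each within-array pair, in each group. In 4 of these 78 sets, 1 array lay far from the others of its group by Dixon's criterion, which chance meets in about 1 of 20 sets. Krt8 read 10.27 in Flattop replicate 3, where the next Flattop array read 11.04, and 9.50 in Lgr5-high replicate 6, where the next read 10.39. Krt19 read 8.42 in Flattop replicate 3, where the next Flattop array read 9.29. Lmnb1 read 9.11 in Lgr5-high replicate 1, where the next read 8.46.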

How the results depend on the processing

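Of 168 comparisons of the 8 genes with their alternatives, 153 kept their direction and their side of the threshold. Krt20 passed in 20 of 21, with differences between 3.75 and 5.20, and did not within titles 38 to 46 (adjusted p = 0.292), which left 0 of the 8 genes past. At a threshold of 0.1, 2 passed in the main fit, Krt20 and Vil1, and Vil1 did not stay under 0.1 in every alternative. Leaving out 1 array left 1 gene past each time. Krt18 turned sign after median centring (0.0089), with array weights (0.10), within titles 1 to 8 (0.38), with the mean of its probe sets (0.074) and in its second probe set (0.16), Espn after a second quantile normalisation (-0.11) and within titles 1 to 8 (-0.037), and Ezr within titles 38 to 46 (-0.089). Within titles 1 to 8 Dsg2 was at 0.29 and Cfap126 at -0.44. With 1 array left out, Krt18 ran from -0.22 to 0.23, Espn from -0.040 to 0.045, Dsg2 from -0.398 to 0.025 and Vil1 against Ezr from -0.20 to 0.51. The related lists held 1 called gene, 2 with the title range as a block, 0 within either title range, 0 with the replicate block and 1 to 2 with 1 array left out (2 without Flattop replicate 4, Cdhr5 and Msn). With the replicate block, in which numbers 1 to 4 are paired, Krt20 was at 4.69 (adjusted p = 0.0324) and Anpep at 2.42, no longer past (0.0547), as was Cdhr5 (0.188). Over all genes 203 were called, 57 with the replicate block, 77 and 85 within titles 1 to 8 and 38 to 46, 123 without Flattop replicate 2 and 132 without Lgr5-high replicate 4. The causes of these changes in number were not tested. Krt6a, Rdx and Stk10 had no value with dim genes left out. Without detection calls, how far a dim value such as Krt20 in Lgr5-high cells stands above background is unknown.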
